A study of Homo sapiens with 6 samples.

Results

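The genes described here were *NFAT5*, 5 genes of osmolyte handling that NFAT5 is known to activate or that share that task (*AKR1B1*, *SLC5A3*, *SLC6A6*, *SLC38A2* and *SLC6A12*), and the 4 calcium-regulated *NFATC* genes (*NFATC1*, *NFATC2*, *NFATC3* and *NFATC4*). They were chosen by symbol, 10 of the 20381 genes in the deposited table. Their values in the comparison of the *PON1*-overexpressing cells with the control cells were known when they were chosen, so that these values are a description and not a test. RNA-seq was performed on HCCLM3, an established human HCC cell line, in 3 libraries of cells infected with lentivirus carrying the *PON1* coding sequence (PON1-OE) and 3 libraries of negative control cells (NC), which carried an empty vector lentivirus per the series text. The paper describes stable puromycin-selected lines, while the series text gives lysis at 24 h after transfection and medium with 15% serum. That serum content differs from the one in the paper. Neither source states whether a line was 1 clone or how the 3 replicates were derived, so that the SD describes the spread between libraries, which may be technical.

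NFAT5, also called TonEBP, is a transcription factor of the Rel family that accumulates in the nucleus when cells face hypertonic medium. It turns on genes that fill the cell with compatible osmolytes: aldose reductase makes sorbitol, and sodium-coupled transporters bring in myo-inositol, taurine and betaine. The NFATC proteins share the Rel-type DNA-binding domain with NFAT5 but are switched on by calcium through the phosphatase calcineurin. NFAT5 lacks the calcineurin docking site, and sites of both kinds of factor hold the letters GGAAA, for NFAT5 usually within TGGAAA.

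The promoters of *AKR1B1*, *SLC38A2*, *SLC5A3* and *NFATC2* are printed to show where these letters stood in osmolyte genes and in an *NFATC* gene. They run 5′ to 3′ from 250 bases before to 50 bases after the start of transcription on GRCh38.p14 (RefSeq), and capitals mark GGAAA or, for a match on the opposite strand, TTTCC.
AKR1B1, chr7:134459051-134459350, minus strand: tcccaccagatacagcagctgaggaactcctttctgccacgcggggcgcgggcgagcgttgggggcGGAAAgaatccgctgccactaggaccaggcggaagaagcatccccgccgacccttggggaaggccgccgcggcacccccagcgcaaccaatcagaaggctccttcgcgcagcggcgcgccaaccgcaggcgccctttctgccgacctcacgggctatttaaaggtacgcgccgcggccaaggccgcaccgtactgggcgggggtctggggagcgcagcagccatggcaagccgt
SLC38A2, chr12:46372724-46373023, minus strand: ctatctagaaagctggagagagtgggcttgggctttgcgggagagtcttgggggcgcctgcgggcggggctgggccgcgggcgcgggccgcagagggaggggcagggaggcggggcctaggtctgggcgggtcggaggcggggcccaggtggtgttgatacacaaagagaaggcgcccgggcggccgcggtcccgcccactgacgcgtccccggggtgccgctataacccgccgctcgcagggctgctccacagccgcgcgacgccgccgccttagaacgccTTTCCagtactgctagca
SLC5A3, chr21:34073328-34073627, plus strand: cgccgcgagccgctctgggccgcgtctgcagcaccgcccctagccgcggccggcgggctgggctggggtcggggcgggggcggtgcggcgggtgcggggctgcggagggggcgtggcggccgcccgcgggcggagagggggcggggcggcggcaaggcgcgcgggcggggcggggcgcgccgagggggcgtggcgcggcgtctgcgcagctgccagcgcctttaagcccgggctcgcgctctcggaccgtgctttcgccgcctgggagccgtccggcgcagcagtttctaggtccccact
NFATC2, chr20:51562790-51563089, minus strand: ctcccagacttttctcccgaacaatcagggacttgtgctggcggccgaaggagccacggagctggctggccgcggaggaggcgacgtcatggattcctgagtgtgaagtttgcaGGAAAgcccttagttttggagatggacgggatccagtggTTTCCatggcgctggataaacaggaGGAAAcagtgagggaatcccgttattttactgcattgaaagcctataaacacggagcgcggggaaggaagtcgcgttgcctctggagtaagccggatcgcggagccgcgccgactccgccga

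The *AKR1B1* window held GGAAA once, 184 bases before the start. A second *AKR1B1* start in the same table, whose window overlaps this one, had 2 matches. The *SLC38A2* window held 1 match on the opposite strand, 33 bases after the start, and this match was also TGGAAA. The *SLC5A3* window held none, which says only that these letters are not in this window. The printed *NFATC2* window had 3 matches, of which the one 97 bases before the start was TGGAAA on the opposite strand. A second *NFATC2* start in the same table had none. Of the 10 genes, 7 were matched in the promoter table, with 12 promoters in all. GGAAA was found on either strand in 7 of these 12, and TGGAAA, which always includes GGAAA, in 3. Over all 35116 promoters of this length, 61.2% held GGAAA and 20.7% held TGGAAA, so that a match is common and describes the letters only.

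The estimated counts summed to 15706672 to 17948383 per library, and NC replicate 2 was the deepest. *PON1*, the overexpressed gene, had estimated counts of 0, 2 and 3 in the NC libraries and 155, 181 and 167 in the PON1-OE libraries, in the direction of the labels. Of 11958 genes that passed the filter on low counts, 81 (0.677%) had an adjusted p under 0.05 (edgeR's quasi-likelihood test, Benjamini-Hochberg), 60 higher and 21 lower in PON1-OE. Levels are given below as CPM, the counts scaled to a common library total after TMM normalization, and log2FC is PON1-OE against NC on the log2 scale with its standard error (SE). The median log2FC over all genes tested was −0.0025, with quartiles of −0.072 and 0.069. Of the liver epithelial markers, *KRT8* averaged 2410 CPM in NC and 2352 in PON1-OE, *KRT18* 1528 and 1596, and *HNF4A* 78.6 and 80.2. *APOB* had 5.77 CPM in NC and 4.49 in PON1-OE (log2FC −0.36, adjusted p = 0.443, edgeR), and *AFP* 0.513 and 0.933 (log2FC 0.88, adjusted p = 0.511, edgeR), both with overlapping libraries. *ALB*, which encodes albumin, was at 0.578 and 0.456 CPM, and *APOA1*, *TTR* and *SERPINA1* were near 0. The 8 markers of other cell types summed to 220 to 240.0 CPM in NC and 238 to 264 in PON1-OE, most of it *CD68*, a lysosomal gene that is not limited to macrophages, at 215 and 235 CPM. *PECAM1* had 13.1 and 15.1 CPM (log2FC 0.21, adjusted p = 0.452, edgeR), higher in every PON1-OE library, and *PTPRC* and *CD3E* were at 0. The part of these markers in the results below was not tested.

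*NFAT5* was lower in every PON1-OE library than in every NC library, *AKR1B1* and *SLC38A2* were lower on average with overlapping libraries, and *SLC6A6* and *NFATC2* were slightly higher. Of the 10 genes, 7 passed the filter on low counts and 3 (*SLC6A12*, *NFATC1* and *NFATC4*) did not. Of the 7, 1 gene, *NFAT5*, had an adjusted p under 0.05, beside 0.677% of all genes tested in either direction and 0.176% in the lower direction. None of the 7 also passed a fold change of 1.5 in either direction, which 0.0502% of all genes did. Every PON1-OE library lay below every NC library for 1 of the 7, beside 7.74% of all genes, and above for 2, beside 8.32%. Since the genes were chosen with this comparison known, nothing is read from these shares. The log2FC of the 7 genes ran from −0.30 to 0.09, with 4 below 0 and 3 above.

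*NFAT5* (ENSG00000102908) lies on the plus strand of chr16:69565094-69704666 (GRCh38) and has a long transcript of 13362 bases with a GC content of 39.3%. Its exons share 1588 bases with *AC012321.1* on the same strand, a noncoding gene without a row of its own in the counts. The estimated counts of *NFAT5* were 1122, 1131 and 1114 in the NC libraries and 891, 849 and 801 in the PON1-OE libraries. These counts correspond to 67.9, 62.5 and 65.3 CPM in NC replicates 1 to 3 and to 54.2, 53.1 and 51.1 CPM in PON1-OE replicates 1 to 3. The groups did not overlap: the lowest NC library, replicate 2, stood above the highest PON1-OE library, replicate 1. The NC mean was 65.3 ± 2.71 CPM and the PON1-OE mean 52.8 ± 1.57 CPM (SD, n = 3), which is 19.1% lower. The log2FC was −0.30 (SE 0.057), with an adjusted p of 0.0141 by edgeR's quasi-likelihood test, the rank of 23 among the 11958 genes. This value belongs to the comparison that was known when the genes were chosen. Without NC replicate 1, NC replicate 3 or PON1-OE replicate 3, the adjusted p was 0.0957, 0.10 and 0.105, with a log2FC of −0.27, −0.30 and −0.28.

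Transcripts of low GC content were slightly lower in PON1-OE across all genes. The median log2FC was −0.026 in 1808 genes under 40% GC against 0.012 in 3688 genes over 55% GC. By length, the median was 0.011 under 2 kb and −0.018 at 6 to 10 kb. In the 489 genes over 10 kb, to which *NFAT5* belongs, it was −0.0077, so that the longest transcripts were not the lowest. Among the 205 genes tested with a transcript of 10 kb or more and a GC content under 42%, to which *NFAT5* belongs, the median log2FC was −0.019. Of these 205 genes, 4, *NFAT5* included, had a log2FC as low as that of *NFAT5* or lower. With GC content and length taken out, the log2FC of *NFAT5* was −0.29 (adjusted p = 0.0339, limma-trend).

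**Figure D1:**
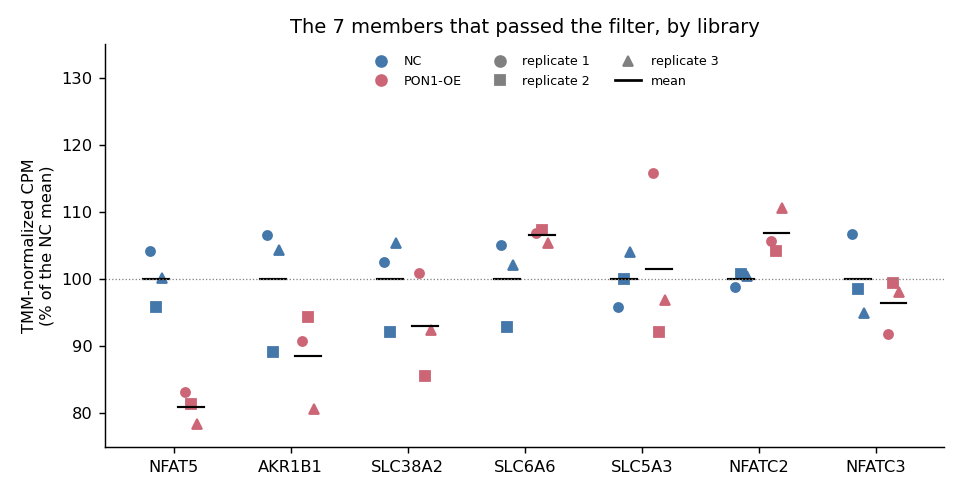
TMM-normalized CPM of the 7 genes that passed the filter, as a percentage of the gene's NC mean, for each library (marker shapes give the replicate, bars the mean of 3 libraries). For *NFAT5* the 3 PON1-OE libraries lie below the 3 NC libraries, while NC replicate 2 (square) is the lowest NC library for *NFAT5*, *AKR1B1*, *SLC38A2* and *SLC6A6*.

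Among the osmolyte genes, *AKR1B1* encodes aldose reductase, the enzyme that reduces glucose to sorbitol. *AKR1B1* (ENSG00000085662) lies on the minus strand of chr7:134442350-134459284. Its levels were 1551, 1298 and 1521 CPM in NC replicates 1 to 3 and 1321, 1375 and 1174 CPM in PON1-OE replicates 1 to 3. NC replicates 1 and 3 stood above all PON1-OE libraries, and NC replicate 2 fell among the PON1-OE values. The means were 1457 ± 138 and 1290 ± 104 CPM (SD, n = 3), 11.4% lower in PON1-OE, with a log2FC of −0.18 (SE 0.055). This value moved with single libraries: without NC replicate 2 the log2FC was −0.25 and the adjusted p fell from 0.196 to 0.00948 (edgeR), while leaving out PON1-OE replicate 3 or NC replicate 1 gave a log2FC of −0.11 or −0.13. Without the filter on low counts, which adds genes to the fit, the adjusted p was 0.00388 (edgeR) at a log2FC of −0.17. DESeq2 gave the same log2FC with an SE of 0.10 and an adjusted p of 0.502. Without PON1-OE replicate 3 the adjusted p was 0.625 (edgeR).

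*SLC38A2* encodes SNAT2, a sodium-coupled transporter of small neutral amino acids that cells induce under hypertonic stress and amino acid shortage. It is on the minus strand of chr12:46358189-46372867 (ENSG00000134294). Its levels were 830, 745 and 852 CPM in NC against 817, 693 and 748 CPM in PON1-OE. The groups overlapped, with PON1-OE replicate 1 inside the NC range. The means were 809 ± 56.4 and 752 ± 62.1 CPM (SD, n = 3), with a log2FC of −0.10 (SE 0.050). With 1 library left out the log2FC of *SLC38A2* ran from −0.16, without PON1-OE replicate 1 or NC replicate 2, to −0.066 without NC replicate 3 and −0.047 without PON1-OE replicate 2.

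*SLC6A6* encodes the taurine transporter TauT and went the other way from *AKR1B1*. It lies on the plus strand of chr3:14402576-14489349 (ENSG00000131389). Its levels were 242, 214 and 235 CPM in NC against 246, 247 and 243 CPM in PON1-OE. All 3 PON1-OE libraries lay above all NC libraries, but NC replicate 1 was within 1 CPM of the lowest of them. The means were 230 ± 14.6 and 245 ± 2.24 CPM (SD, n = 3), with a log2FC of 0.09 (SE 0.043) that was 0.04 without NC replicate 2 and at most 0.13 with 1 library left out. Its exons share 239 bases with *GRIP2* on the opposite strand, a gene with 0 to 5 estimated counts per library.

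*SLC5A3* encodes SMIT1, the sodium/myo-inositol cotransporter. It lies on the plus strand of chr21:34073570-34106262 (ENSG00000198743). Its levels were 19.0, 19.8 and 20.6 CPM in NC against 23.0, 18.3 and 19.2 CPM in PON1-OE. The PON1-OE libraries held both the highest and the lowest value of all 6. The means were 19.8 ± 0.813 and 20.1 ± 2.48 CPM (SD, n = 3), with a log2FC of 0.02 (SE 0.093), smaller than its error. *SLC5A3* shares 273 exonic bases with *MRPS6* on the same strand, a mitochondrial ribosome gene at 59.6 CPM in NC against 59.4 CPM in PON1-OE, so that its reads may have been split between them. With both genes and the others sharing their exons summed, the log2FC was −0.00027.

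*SLC6A12* encodes BGT1, the betaine transporter that is a classical NFAT5 target in kidney cells. It had 2, 4 and 2 estimated counts in the NC libraries and 1 in each PON1-OE library. The sums of 8 and 3 counts gave a ratio of 0.403 with an exact 95% interval of 0.0688 to 1.68, which covers counting error only. At this depth a level of 3 counts is 0.166 to 0.192 CPM, so that *SLC6A12* was near the limit of detection in all libraries and a difference was not detectable.

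Summed, the 5 osmolyte genes reached 2642, 2277 and 2629 CPM in NC against 2407, 2333 and 2184 CPM in PON1-OE. The groups overlapped through NC replicate 2, and *AKR1B1* made up 56.9% of the sum. The means were 2516 ± 207 and 2308 ± 113 CPM (SD, n = 3), a log2 ratio of −0.12. With 1 library left out the log2 ratio ran from −0.19, without NC replicate 2, to −0.086 without PON1-OE replicate 3. Without *SLC38A2*, which is also controlled by amino acid supply, the log2 ratio was −0.13, and *AKR1B1* made up 84.2% of that sum.

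The *NFATC* genes encode the calcium-regulated relatives of NFAT5. *NFATC2* (chr20:51386957-51562831, minus strand) had 29.7, 30.3 and 30.2 CPM in NC against 31.8, 31.3 and 33.3 CPM in PON1-OE. The PON1-OE values all exceeded the NC values, with means of 30.1 ± 0.30 and 32.1 ± 1.01 CPM (SD, n = 3). The log2FC of *NFATC2* was 0.09 (SE 0.069), so that the difference was not much larger than its error.

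*NFATC3* (chr16:68084751-68229259, plus strand) is on the same chromosome as *NFAT5*. It had 32.2, 29.7 and 28.6 CPM in NC against 27.7, 30.0 and 29.6 CPM in PON1-OE, and the groups overlapped. The means were 30.2 ± 1.82 and 29.1 ± 1.2 CPM (SD, n = 3), with a log2FC of −0.05 (SE 0.074), smaller than its error. Without NC replicate 1 it was −0.0044, without PON1-OE replicate 1 it was −0.015, and without NC replicate 3 it was −0.088. Its exons share 149 bases with *ESRP2* on the opposite strand, at 12.7 CPM in NC against 11.4 CPM in PON1-OE. The exons of *NFATC3* also overlap genes without a row of their own in the counts. These are *AC020978.7* (1385 bases) and *AC130462.1* (285 bases) on the same strand and *AC020978.5* (2796 bases) on the opposite strand.

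*NFATC1* and *NFATC4* were near the limit of detection. *NFATC1* (chr18:79395856-79529325) had 0, 1 and 5 estimated counts in NC and 0, 5 and 1 in PON1-OE, which sum to 6 in each group (ratio 1.07, exact 95% interval 0.287 to 4.02). *NFATC4* (chr14:24365673-24379604) had 5, 4 and 7 estimated counts in NC and 3, 2 and 0 in PON1-OE. Its sums of 16 and 5 gave a ratio of 0.336 with an exact 95% interval of 0.0962 to 0.959, for counting error only, and the spread between libraries is not in this interval. The summed *NFATC* level was 60.7 ± 1.38 CPM in NC against 61.4 ± 1.63 CPM in PON1-OE (SD, n = 3), a log2 ratio of 0.018, which ran from 0.0011 without PON1-OE replicate 3 to 0.042 without PON1-OE replicate 1. Nearly all of it came from *NFATC2*, at 47.8% to 53.3% of the sum, and *NFATC3*, at 46.4% to 51.7%.

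Per kilobase of transcript, the order of mean levels in NC was *AKR1B1* (1034 CPM per kb), *SLC38A2* (165), *SLC6A6* (35.3), *NFAT5* (4.88), *NFATC3* (4.77), *NFATC2* (4.0) and *SLC5A3* (1.71). In PON1-OE the order began in the same way, at 916, 154 and 37.6 CPM per kb, but *NFAT5* at 3.95 CPM per kb followed *NFATC3* (4.59) and *NFATC2* (4.27), with *SLC5A3* last at 1.74. In the NC libraries *NFAT5* (4.68 to 5.09 CPM per kb) and *NFATC3* (4.52 to 5.08) overlapped and do not differ beyond their spread. In PON1-OE the *NFAT5* libraries, at 3.83 to 4.06 CPM per kb, lay below all *NFATC3* libraries (4.38 to 4.73) and all *NFATC2* libraries (4.16 to 4.42), while those of *NFATC3* and *NFATC2* overlapped. These levels rest on 1 transcript length per gene, and another length for a gene would shift it against the others.

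The ratio of *NFAT5* CPM to the summed *NFATC* CPM puts these values within a library. It was 1.09, 1.04 and 1.10 in the NC libraries and 0.909, 0.860 and 0.813 in the PON1-OE libraries. The ratio was above 1 in every NC library and below 1 in every PON1-OE library. Since CPM are not per length here, the ratio compares libraries and not the amounts of the transcripts.

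**Figure D2:**
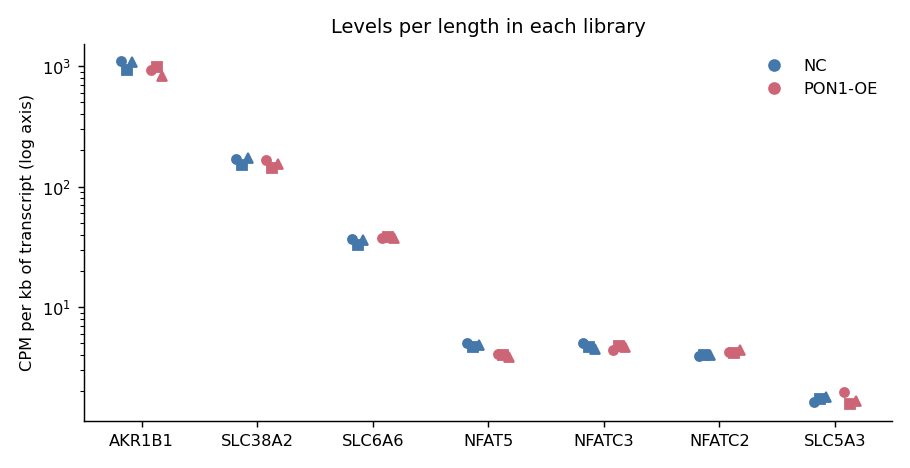
CPM per kb of transcript on a log axis for the 7 genes that passed the filter, 1 point per library, NC and PON1-OE side by side. *AKR1B1* is the highest at 1034 and 916 CPM per kb on average, and *NFAT5* moves from the level of *NFATC3* in NC to below *NFATC3* and *NFATC2* in PON1-OE.

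NC replicate 2 was the lowest of the NC libraries for *NFAT5*, *AKR1B1*, *SLC6A6* and *SLC38A2*, and it was also the deepest library. Its part in the differences above is shown by the values without it. Leaving it out made the log2FC of *NFAT5* −0.33 and kept its adjusted p under 0.05. Over 15 settings of the analysis, the log2FC of *NFAT5* ran from −0.33 to −0.27, and its adjusted p was under 0.05 in 12 of them, between 0.000865 and 0.105. Among the 15 is the sum of genes that share exons, which added no counts to *NFAT5*, since no other counted gene shares its exons. The log2FC of *AKR1B1* ran from −0.25 to −0.11 over 14 settings and had an adjusted p under 0.05 in 2.

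**Figure D3:**
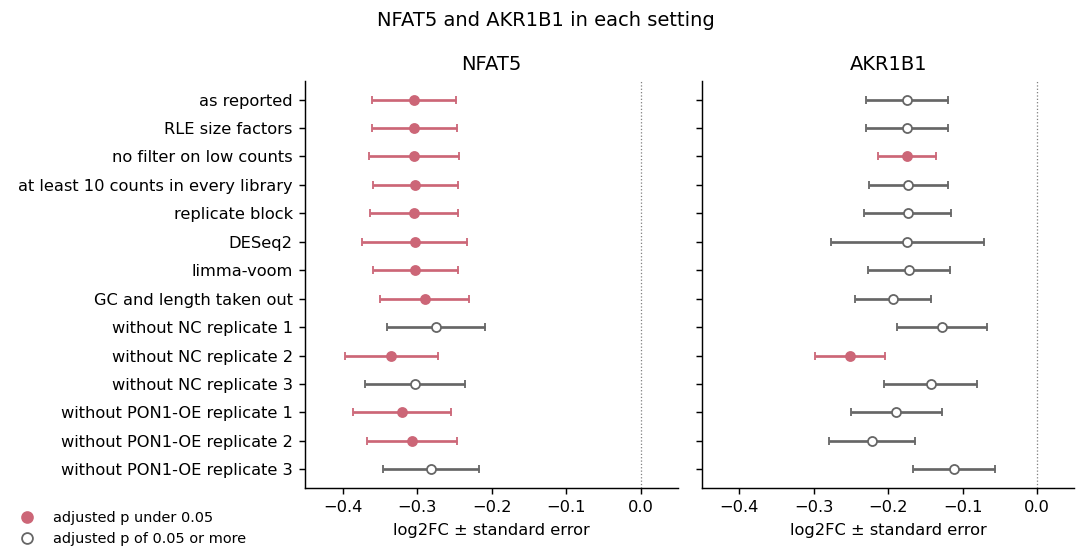
log2FC of *NFAT5* (left) and *AKR1B1* (right) in each of 14 settings, with bars of 1 standard error, and filled points have an adjusted p under 0.05. *NFAT5* stays between −0.33 and −0.27 but loses the threshold without NC replicate 1, NC replicate 3 or PON1-OE replicate 3, and *AKR1B1* passes it without the filter and without NC replicate 2.

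The genes whose log2 CPM over the 6 libraries followed that of *NFAT5* most closely, among 9980 genes with a mean of 5 CPM or more, were *TRPM4* (Pearson's r = 0.988), *PLCB1* (0.984), *TMTC2* (0.983), *RASL10B* (0.980) and *UGDH* (0.978). The libraries of a group share their treatment, and with 6 points some of 9980 genes will lie close, so that these are descriptions. All 5 genes were lower in every PON1-OE library than in every NC library, as were 7.74% of all genes tested. That follows largely from their choice by r with *NFAT5*, whose groups do not overlap. Their log2FC were −0.16, −0.14, −0.28, −0.33 and −0.14 in the same order. *TRPM4*, a cation channel opened by calcium, had 16.9 ± 0.330 CPM in NC against 15.1 ± 0.432 CPM in PON1-OE (SD, n = 3). *UGDH*, which makes the UDP-glucuronic acid used for glucuronidation and hyaluronan, had 544 ± 13.6 and 492 ± 6.13 CPM. None of the 5 had an adjusted p under 0.05, and the lowest was that of *UGDH* at 0.0518 (edgeR). Among the genes described here, r with *NFAT5* was 0.79 for *AKR1B1*, 0.62 for *SLC38A2*, 0.43 for *NFATC3*, −0.015 for *SLC5A3*, −0.46 for *SLC6A6* and −0.93 for *NFATC2*. These r include the difference between the groups, which was known when the genes were chosen. For the deviations from the group means in the same 6 libraries, r was 0.88 for *AKR1B1*, 0.84 for *SLC6A6*, 0.59 for *SLC38A2*, 0.22 for *SLC5A3*, 0.21 for *NFATC3* and −0.69 for *NFATC2*, so that *SLC6A6* and *SLC5A3* changed sign. These deviations sum to 0 within each group, which leaves few free values. NC replicate 2 was the lowest NC library for *NFAT5*, *AKR1B1*, *SLC6A6* and *SLC38A2*, so that a single library weighs on their r. Nothing is read from these r.

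Other genes of the pathway were examined in 6 lists of 166 genes in all, of which 119 passed the filter. Of these 119, 2 were lower and none higher at an adjusted p under 0.05 (edgeR). Over all genes tested, 0.677% passed in either direction and 0.176% in the lower direction. At an unadjusted p under 0.05 there were 24 of the 119, beside 11.1% of all genes (5.17% lower and 5.91% higher). Their median log2FC was −0.0042. The lists were chosen with earlier results of these data known, so that nothing is read from these counts. Both lower genes, *HSPA1A* and *HSPA1B*, stood in the list of other NFAT5 targets, of which 9 of 19 were tested. They encode the stress-inducible chaperone HSP70, which the heat shock factor HSF1 also controls. *HSPA1A* fell from 504 ± 11.3 CPM in NC to 432 ± 19.7 CPM in PON1-OE (SD, n = 3), a log2FC of −0.22 (SE 0.038, adjusted p = 0.00682, edgeR). *HSPA1B* fell from 286 ± 2.03 to 244 ± 17.1 CPM (SD, n = 3), a log2FC of −0.23 (SE 0.044, adjusted p = 0.0187, edgeR). The 2 genes are nearly identical copies, so that their reads may be split between them and they are not separate evidence. Their summed level was 779, 804 and 786 CPM in NC against 634, 692 and 702 CPM in PON1-OE, with no overlap and a log2FC of −0.22 (SE 0.038, adjusted p = 0.00726, edgeR). Without NC replicate 3 the adjusted p of *HSPA1A* was 0.0523 (edgeR). That of *HSPA1B* was above 0.05 without NC replicate 1, NC replicate 3 or PON1-OE replicate 1. *HSPH1*, a co-chaperone of HSP70, had a log2FC of −0.17 (adjusted p = 0.157), *SGK1*, a kinase induced by cell shrinkage, 0.45 (0.450), and *S100A4* −0.081 (0.601), each by edgeR. The log2FC of *HSPH1* was −0.10 without PON1-OE replicate 2, and that of *S100A4* ran from −0.14, without NC replicate 2, to −0.033 without NC replicate 3 and −0.020 without PON1-OE replicate 3. Of the 9 tested genes, 3 were lower and 1 higher at an unadjusted p under 0.05 (edgeR), and the median log2FC was −0.081.

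The list of osmolyte handling, with enzymes and transporters of sorbitol, inositol, betaine, taurine and choline compounds, had 23 of 28 genes tested and none with an adjusted p under 0.05. Of these 23, 3 were lower and 2 higher at an unadjusted p under 0.05 (edgeR), which is 21.7%, beside 11.1% of all genes tested. As above, nothing is read from this count. The median log2FC was −0.055, with a range of −0.50 to 0.50. *GPCPD1*, a phosphodiesterase that breaks down the osmolyte glycerophosphocholine, had 28.4 ± 1.33 CPM in NC against 34.4 ± 3.20 CPM in PON1-OE (SD, n = 3), a log2FC of 0.28 (adjusted p = 0.135, edgeR). *SLC44A1*, a choline transporter, had a log2FC of −0.14, *SLC2A13*, a myo-inositol transporter, −0.27, and *BAAT*, which joins taurine to bile acids, −0.22, all with adjusted p above 0.2. *AKR1B10*, a close relative of *AKR1B1*, had 1048 ± 85.4 CPM in NC against 1068 ± 66.7 CPM in PON1-OE (SD, n = 3), a log2FC of 0.03.

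The list of NFAT5 activation, with kinases, import factors and partners of NFAT5, had 25 of 26 genes tested, none with an adjusted p under 0.05 and a median log2FC of −0.0063. At an unadjusted p under 0.05 (edgeR), 2 were lower and 1 higher, which is 12%, beside 11.1% of all genes tested. *KPNB1*, an importin, had a log2FC of −0.12 (adjusted p = 0.180, edgeR), *HSP90AA1* −0.078, and *MAP2K3*, a kinase upstream of p38, 0.11. That of *HSP90AA1* was −0.035 when PON1-OE replicate 2 was left out and −0.12 when replicate 3 of that group was. The list of calcineurin signaling, the route to the NFATC proteins, had 26 of 31 genes tested, none with an adjusted p under 0.05. Of these 26, 1 was lower and 3 higher at an unadjusted p under 0.05 (edgeR), which is 15.4%, beside the same 11.1%. The median log2FC was 0.0067. *PTGS2*, a target of NFAT proteins, had a log2FC of −0.24 (adjusted p = 0.236, edgeR), and the calmodulin gene *CALM2* 0.087, or 0.051 without NC replicate 2.

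The list of cell volume regulation, with ion pumps, chloride cotransporters and water channels, had 25 of 31 genes tested and none with an adjusted p under 0.05. Of these 25, 4 were lower and 1 higher at an unadjusted p under 0.05 (edgeR), which is 20%, beside 11.1% of all genes tested. The median log2FC was −0.0042. *ATP1B1*, the beta subunit of the sodium pump, came nearest to the threshold, at 267 ± 8.68 CPM in NC against 239 ± 8.34 CPM in PON1-OE (SD, n = 3), a log2FC of −0.16 (SE 0.040, adjusted p = 0.0794, edgeR). *AQP7*, a water and glycerol channel, had a log2FC of −0.36 and *SLC9A3*, a sodium/proton exchanger, −0.22. The list of amino acid transporter relatives had 12 of 32 genes tested, none with an adjusted p under 0.05. Of these 12, 1 was lower and 2 higher at an unadjusted p under 0.05 (edgeR), which is 25%, beside the same 11.1%. The median log2FC was 0.055. *SLC38A1*, the nearest relative of *SLC38A2*, had 678 ± 5.57 CPM in NC against 661 ± 43.1 CPM in PON1-OE (SD, n = 3), and *SLC1A4*, a neutral amino acid exchanger, had a log2FC of 0.12.

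**Figure D4:**
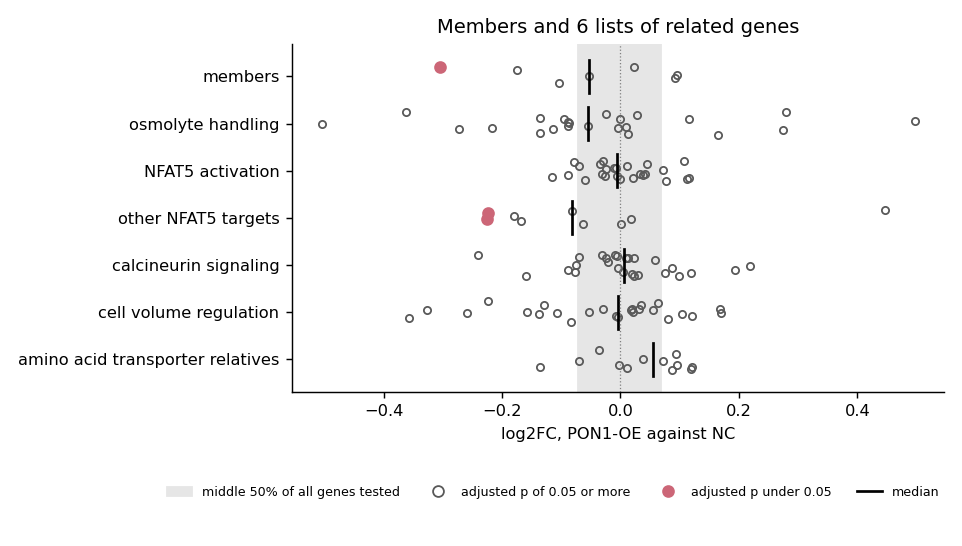
log2FC of PON1-OE against NC for each tested gene of the group described here (top, "members") and of 6 lists, with the median as a bar and the middle 50% of all genes tested in grey. Filled points, *NFAT5*, *HSPA1A* and *HSPA1B*, have an adjusted p under 0.05, and the medians lie between −0.081 and 0.055.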

How the data were processed

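The 6 RNA-seq libraries were grouped by their GEO labels as PON1-OE (n = 3) and NC (n = 3). Poly(A) RNA was sequenced, and the submitters' processing notes name Bowtie2 2.2.8, HISAT2, StringTie 1.3.1 and DESeq2. The table deposited by the authors held estimated counts, not normalized, for 20381 genes by Ensembl identifier, and 10.5% of its values were not whole. The genome build and the strand setting of the counting are not given in the sources used here. The estimated counts were rounded, which the planned test for whole counts did not foresee, and fitted with edgeR 4.0.16 under R 4.3.3 (filterByExpr, TMM, glmQLFit and glmQLFTest, no covariate), with Benjamini-Hochberg adjustment across all 11958 genes tested. limma 3.58.1 and DESeq2 1.42.0 were used for alternatives. The fits were tested on simulated data, but the settings and outcome are not given here, so that nothing is drawn from this.

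The genes described and the lists were chosen with earlier results of these data known. The text names list genes from those with an adjusted p under 0.05, up to 4 per list with the smallest unadjusted p under 0.05 and the 2 with the highest mean CPM, the 5 genes most like *NFAT5* and genes that share exons with those described, while the other markers (*HNF4A*, *ALB*, *AFP*, *APOA1*, *TTR*, *SERPINA1*, *PTPRC* and *CD3E*) were picked after their values were seen. Coordinates, shared exons (and so the summed loci), lengths and GC content came from GENCODE v29, in which 20102 identifiers were found. Alternatives were RLE size factors, other filters, the replicate number as a block, DESeq2, limma-voom, GC content and length taken out, summed loci and each library left out in turn. The sum of *HSPA1A* and *HSPA1B* was added after seeing the data. Libraries of a group differed by more than sampling noise (chi-square per degree of freedom 2.11 to 4.11). A floor of 3 counts was 0.166 to 0.192 CPM.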

Additional observations from a re-analysis of the deposited data

How the results depend on the processing

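The number of genes with an adjusted p under 0.05 was 81 of 11958 as reported, 177 of 15542 without the filter on low counts and 122 of 4576 by DESeq2. These counts are therefore not over the same genes. The number was 40 with the replicate number as a block and 11 to 103 with 1 library left out (34 without NC replicate 1, 11 without NC replicate 3, 44 without replicate 1 of PON1-OE and 18 without its replicate 3). With a fold change of over 1.5 as well it was 6, 23 without the filter, 1 by DESeq2 (of its 4576 genes) and 4 to 10 with 1 library left out (10 without NC replicate 2). Of the genes described, 1 passed, 2 without the filter (*NFAT5* and *AKR1B1*) and 0 to 2 with 1 library left out. Of the list genes, 2 passed, 5 without the filter, 4 with GC content and length taken out and 0 to 4 with 1 library left out. The log2FC of *NFAT5* was −0.33 to −0.27 with 1 library left out.

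For libraries with the same replicate number, deviations from the group means correlated by 0.112, −0.257 and −0.195 in replicates 1 to 3. The largest r was 0.378, between NC replicate 2 and PON1-OE replicate 3. With 3 libraries per group, whose deviations sum to 0, these values cannot decide whether samples were paired. With the replicate block, *NFAT5* had a log2FC of −0.30 and an adjusted p of 0.0307.

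The sign changed for *SLC5A3* (−0.00027 with loci summed, −0.079 to 0.090 with 1 library left out) and for *SLC7A5* (−8.67e-05 with GC content and length taken out, −0.021 to 0.018 with 1 library left out). With 1 library left out it also changed for *SLC38A1* (−0.075 to 0.015), *PPIA* (−0.0070 to 0.058), *WNK1* (−0.031 to 0.037), *KRT8* (−0.10 to 0.013), *RHOA* (−0.039 to 0.017) and *AKR1B10* (−0.032 to 0.086). The cause was not tested. Depth limits *SLC6A12*, *NFATC1* and *NFATC4*, with at most 7 counts in a library.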
